A study of Homo sapiens with 6 samples.

Results

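The MYC and MAX network is a group of transcription factors that compete for the same partners and the same DNA element. Its 10 members described here, MYC, MYCN, MAX, MXD1, MXD3, MXD4, MNT, MGA, MLX and MXI1, were taken by gene symbol. Each was found once among the 60640 gene identifiers of the tables. The choice was made with earlier results of these data known. They were measured by polyA RNA-seq in MOLT-4, a human cell line grown from a T-cell acute lymphoblastic leukemia (T-ALL), in 3 libraries labelled wild type and 3 labelled IK-KO. The wild type cells are the control of the CRISPR knockout, and the IK-KO cells carry a CRISPR-Cas deletion in IKZF1, the gene of IKAROS, a zinc finger protein that regulates lymphoid genes. The edited and the control cells were bought as a pair and grown in the same medium, and the sources used here name no other agent for them. The study shows blots of a pair of edited clones, but the labels name no clone, so differences between the lines that arose with cloning and effects of the loss of IKAROS cannot be told apart. The labels do not say whether the 3 libraries of a group came from separate cultures, so p-values measure only the spread between these libraries, which may be technical.

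MYC and its relative MYCN bind DNA only as dimers with MAX, mostly at an element called the E-box, and raise transcription of genes for ribosome production, nucleotide synthesis and cell division. The MXD proteins, MXI1 and MNT also dimerise with MAX and occupy the same element, where they bring in SIN3 and histone deacetylases and lower transcription. MGA joins MAX to a variant Polycomb complex, PRC1.6, and MLX, a relative of MAX, links some MXD proteins and MNT to the glucose-sensing factors MLXIP and MLXIPL. In T-ALL, MYC is a known oncogene that acts downstream of NOTCH1.

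The 10 members covered a wide span of levels, and their order was nearly the same in every library. FPKM, the unit of the tables, is the number of fragments divided by the length of the transcript and by the mapped fragments of the library, so levels can be compared between genes on this scale, but each value is a share of its library, and a change in RNA per cell or in cell number cannot be told apart from it. MYC stood first with a mean of 178 ± 9.10 FPKM over the 6 libraries (SD, n = 6), above 96.3% of the 12652 tested genes, whose mean FPKM was at least 1. MAX, the shared partner, followed at 67.5 ± 4.77 FPKM, and MLX stood at 41.1 ± 1.57 FPKM. Among the antagonists, MXD3 held 33.3 ± 3.20 FPKM, MXD4 13.9 ± 1.19 FPKM, MGA 12.6 ± 0.848 FPKM and MNT 7.12 ± 0.547 FPKM. MXI1 (3.07 ± 0.780 FPKM) and MXD1 (1.23 ± 0.188 FPKM) were low, and MYCN, at 0.266 ± 0.147 FPKM, was below the limit for testing. Neighbours in this order were separate in their ranges over the 6 libraries except MXD4 and MGA, whose ratio of means was 1.10. The confidence bounds listed with each FPKM were narrowest in MYC, at 3.85% to 4.42% of the FPKM on either side. They were widest in MYCN, at 50.2% to 115%. They did not strictly follow the level, since MAX had 8.43% to 16.9%, against 6.51% to 7.40% in MLX. With all 6 libraries pooled, these bounds overlapped for MLX and MXD3, MXD4 and MGA, and MXI1 and MXD1. They also overlapped for MNT and MXI1 and for MXD1 and MYCN, but only between different libraries.

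**Figure D1:**
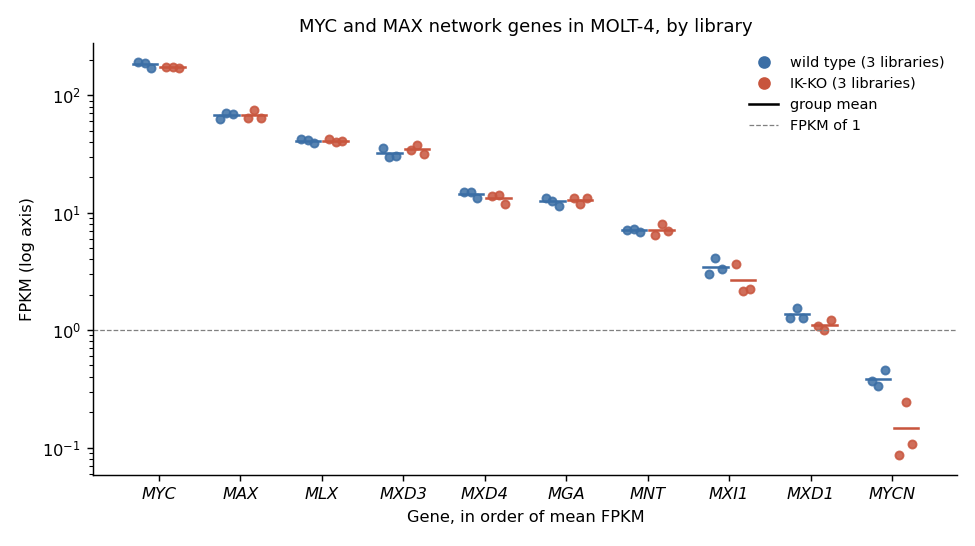
FPKM of the 10 network genes (log axis, genes in order of mean FPKM), with 1 point per library and the wild type and IK-KO libraries in separate colours. MYC lies between 170.0 and 191 FPKM in all 6 libraries, and the points of the groups separate in MXD1 and MYCN only.

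MOLT-4 thus held the network in a form in which MYC, and not MYCN or MYCL, supplied nearly all MYC-family transcript. Markers of the T lineage were present: 9 of 10 T-lineage markers reached 1 FPKM in every library, with a summed level of 4534 to 4775 FPKM in wild type and 5259 to 5721 FPKM in IK-KO libraries. That sum was mostly TRBC2 (3225 to 4260 FPKM over the 6 libraries), and single markers went the other way: CD2 was at 58.9, 62.0 and 63.7 FPKM in wild type, against 5.04, 5.39 and 4.98 FPKM in IK-KO, and CD7, CD5 and TRAC were also lower in every IK-KO library. The part of these marker differences in the results on the network was not tested. Markers of other lineages were low: none of 5 B-lineage, 5 myeloid, 2 erythroid and 3 stromal markers reached 1 FPKM in every library. In single libraries, CD79A reached 1.83 FPKM (wild type replicate 2) and CD79B 1.43 and 1.07 FPKM (wild type replicates 2 and 3). The B-lineage markers summed to at most 3.62 FPKM in wild type and 1.53 FPKM in IK-KO libraries, and the myeloid markers to at most 0.607 and 0.532 FPKM. The libraries resembled each other in depth, with 21254 to 21887 rows above 0 and a relative depth of 0.906 to 1.09. IKZF1 itself was at 134, 124 and 105 FPKM in wild type, and the libraries labelled IK-KO held 207, 259.6 and 207 FPKM. Its RNA was therefore higher, not lower, in the edited line (log2 change 0.89, SE 0.12, adjusted p = 0.00295, limma). These RNA levels do not check the knockout, for which the study reports PCR and western blot. IK-KO is used below as the label of these libraries.

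E-box motifs stood in the promoters of some members. RefSeq promoter windows ran from 250 bases before to 50 bases after an annotated start on GRCh38.p14. They were matched for 9 of the 10 genes, in 14 windows. MYC had no matched window, so its promoter was not searched for any motif. The E-box CACGTG, which reads the same on both strands, occurred in 3 of these 14 windows (21.4%), against 7.26% of all 35116 windows and 9.70% of the 12942 windows of tested genes. The members with an E-box were MXD4, MNT and MLX. The lines below show the sites, because MYC, MXD and MNT proteins compete for this element. Each is read 5′ to 3′ on the strand of the gene, with the E-box in capitals and the offset of its first base from the start.
MXD4, chr4:2262332-2262357, minus strand, offset −238 from the start: gccgggccacCACGTGctgttgctaa
MNT, chr17:2401238-2401263, minus strand, offset −193 from the start: ctgcccgggcCACGTGtgcgcgcgcc
MLX, chr17:42567040-42567065, plus strand, offset −50 from the start: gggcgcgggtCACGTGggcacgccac
A 6-base core recognised by IKAROS, TGGGAA, was searched on both strands in the same windows and was found for MYCN, MGA and MXI1. These were also 3 of 14 windows (21.4%), against 24.0% of all windows and 21.6% of those of tested genes. The sites of the pair of members with the lowest IK-KO to wild type ratios are shown, with the core, here on the opposite strand, in capitals.
MYCN, chr2:15940319-15940344, plus strand, offset −221 from the start: caccctgggcTTCCCAgctttgcagc
MXI1, chr10:110225904-110225929, plus strand, offset −82 from the start: gggactacatTTCCCAgggggcagag
A match describes the letters in a window and does not show binding. MXD4, MNT and MLX, which carry an E-box, and MGA and MXI1, which carry the core, were all tested, and none of them was called.

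The comparison of IK-KO with wild type asks whether these transcripts differ between edited T-ALL cells and their control. None of the 9 members that passed the filter on low FPKM was called, where a gene is called at an adjusted p under 0.05 by limma on log2(FPKM + 1), although 2515 of the 12652 tested genes (19.9%) were. Of all tested genes, 10.1% were called higher and 9.75% lower in IK-KO. Without adjustment, 0 of 9 members and 4227 of the 12652 genes had p under 0.05. The smallest adjusted p of a member was 0.317. Log2 changes were above 0 in 5 members and below 0 in 4, with a median of 0.002, against 0.02 over all tested genes. Their median size was 0.08, against 0.18 over all tested genes and 0.52 over the called genes. The 95% intervals of all 9 members lay within a 2-fold change in either direction. Their half-widths were between 0.13 and 0.45 on the log2 scale. These intervals are not adjusted for the number of tests. At this spread, a call therefore needed a change larger than the half-width of a gene by some margin. A missed threshold does not show that the groups were equal.

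**Figure D2:**
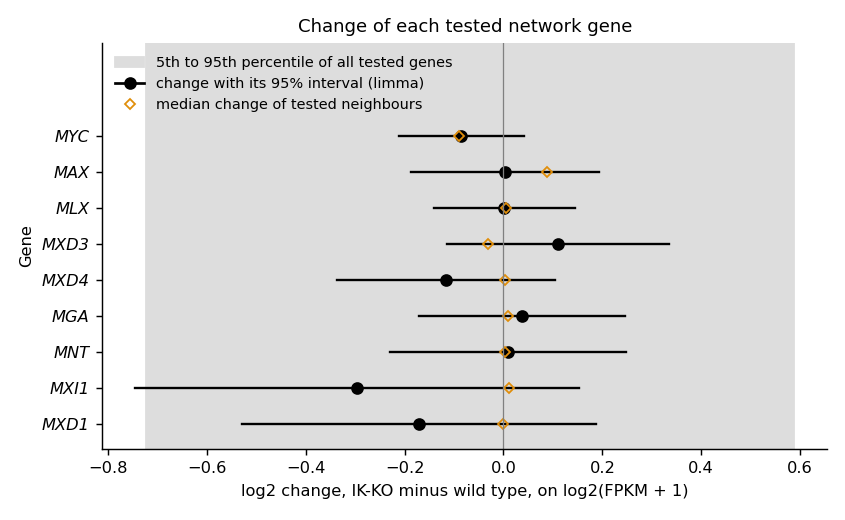
Log2 change (IK-KO minus wild type, on log2(FPKM + 1)) of the 9 tested members as points with 95% limma intervals, beside the median change of tested genes within 5 megabases as diamonds; the shaded band spans the 5th to the 95th percentile of all tested genes (−0.72 to 0.59). Every interval crosses 0.

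MYC, at chromosome 8, 127735434 to 127742951 (plus strand, GRCh38), had FPKM of 191, 188 and 171 in wild type replicates 1 to 3 and of 175, 172 and 170.0 in IK-KO replicates 1 to 3. The ranges overlapped because the lowest wild type library fell among the IK-KO libraries. The means were 183 ± 10.7 and 172 ± 2.63 FPKM (SD, n = 3 each). The log2 change was −0.08 (SE 0.05, 95% interval −0.21 to 0.04, adjusted p = 0.317, limma), a ratio of 0.943 with an interval of 0.864 to 1.03 on the scale of FPKM + 1. The 30 tested genes whose midpoints lie within 5 megabases of that of MYC had a median change of −0.09, and with that median removed the change of MYC was 0.01 (adjusted p = 0.960, limma). Without wild type replicate 3, its change was −0.13 (adjusted p = 0.0670). CASC11, a noncoding gene that overlaps MYC on the opposite strand, had a mean of 0 FPKM in wild type and 0.161 FPKM in IK-KO. It reached at most 0.199 FPKM and was too low to test.

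MYCN, at chromosome 2, 15940550 to 15947007 (plus strand), is the neuronal relative of MYC. Its FPKM was 0.367, 0.336 and 0.454 in wild type and 0.0862, 0.246 and 0.107 in IK-KO libraries. The groups did not overlap, but in IK-KO replicates 1 and 3 the listed lower confidence bound was 0. The means were 0.386 ± 0.0611 and 0.146 ± 0.0871 FPKM (SD, n = 3 each). In a limma fit with no filter on low values, its log2 change was −0.28 (95% interval −0.45 to −0.10, adjusted p = 0.0915), and with a pseudocount of 0.1 it was −1.03 (−1.86 to −0.20, adjusted p = 0.157). Neither value passed the threshold after adjustment. Only 2 members had groups that did not overlap, MYCN and MXD1, and 1 of them was among the 9 tested, against 39.0% of all tested genes.

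MAX, at chromosome 14, 65006174 to 65102695 (minus strand), is the obligate partner of MYC and of its antagonists. It was at 62.5, 70.0 and 69.8 FPKM in wild type, against 63.5, 74.8 and 64.6 FPKM in IK-KO libraries. The ranges overlapped in part, with IK-KO replicate 2 above and wild type replicate 1 below all libraries of the other group. The log2 change was 0.00 (SE 0.08, 95% interval −0.19 to 0.19, adjusted p = 0.987, limma). MAX overlaps FNTB on the opposite strand (8.41 FPKM in wild type and 7.69 in IK-KO) and the readthrough gene CHURC1-FNTB, which was at a mean of 0.0173 FPKM in wild type and 6.95 in IK-KO, with up to 19.8 FPKM in 1 library, and whether strand was used in the quantification is not given in the sources used here.

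MLX, at chromosome 17, 42567068 to 42573239 (plus strand), is the partner of the MAX-like branch of the network. Its FPKM was 42.7, 41.5 and 38.9 in wild type and 42.7, 39.6 and 41.0 in IK-KO libraries, and the group means were both 41.1. Its log2 change was 0.002 (SE 0.06, 95% interval −0.14 to 0.14, adjusted p = 0.987, limma). It overlaps PSMC3IP on the opposite strand, which was at 19.5 FPKM in wild type and 23.0 in IK-KO.

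MXD3, at chromosome 5, 177301461 to 177312757 (minus strand), is the MXD gene linked to dividing cells and had the highest MXD level. It was at 35.6, 29.7 and 30.6 FPKM in wild type, against 34.4, 37.8 and 31.4 FPKM in IK-KO libraries. Wild type replicate 1 lay above 2 of the 3 IK-KO libraries, so the groups overlapped. Its log2 change, 0.11, was the highest among the members (SE 0.10, 95% interval −0.11 to 0.34, adjusted p = 0.471, limma). MXD3 shares bases with PRELID1 on the opposite strand (144 FPKM in wild type and 141 in IK-KO) and with RAB24 on its own strand (5.23 and 8.89 FPKM), whose fragments may have been divided between the genes.

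MXD4, at chromosome 4, 2247432 to 2262109 (minus strand), is expressed mainly in resting and differentiating cells. It was at 15, 14.9 and 13.4 FPKM in wild type, against 13.8, 14.3 and 11.8 FPKM in IK-KO libraries, and the ranges overlapped. Its log2 change was −0.12 (SE 0.09, 95% interval −0.34 to 0.10, adjusted p = 0.435, limma).

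MXI1, at chromosome 10, 110207605 to 110287365 (plus strand), is an MXD-type repressor and had the most negative change of the tested members. Its FPKM was 3.0, 4.1 and 3.30 in wild type and 3.67, 2.14 and 2.23 in IK-KO libraries. IK-KO replicate 1 lay within the wild type range, while the other IK-KO libraries lay below it. The log2 change was −0.30 (SE 0.19, 95% interval −0.74 to 0.15, adjusted p = 0.330, limma), a ratio of 0.815 with an interval of 0.597 to 1.11. Without IK-KO replicate 1 it was −0.48 (adjusted p = 0.104), still short of the threshold.

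MXD1, at chromosome 2, 69897688 to 69942945 (plus strand), is the founding MXD gene and is induced when cells differentiate. It was at 1.27, 1.53 and 1.28 FPKM in wild type, against 1.07, 0.994 and 1.22 FPKM in IK-KO libraries. The groups did not overlap, but the lowest wild type and the highest IK-KO value were close, and confidence bounds reached 34.1% to 52.1% of the FPKM on either side. Its log2 change was −0.17 (SE 0.15, 95% interval −0.53 to 0.19, adjusted p = 0.482, limma). SNRNP27, which overlaps MXD1 on the same strand, was far more abundant at 31.4 FPKM in wild type and 34.6 in IK-KO.

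The remaining antagonists, MNT and MGA, differed by less than the spread between libraries. MNT, at chromosome 17, 2384073 to 2401104 (minus strand), was at 7.11, 7.25 and 6.88 FPKM in wild type, against 6.41, 8.07 and 6.97 FPKM in IK-KO libraries (log2 change 0.01, SE 0.10, 95% interval −0.23 to 0.25, adjusted p = 0.967, limma). MGA, at chromosome 15, 41621224 to 41773081 (plus strand), was at 13.5, 12.6 and 11.3 FPKM in wild type, against 13.2, 12.0 and 13.2 FPKM in IK-KO libraries (log2 change 0.04, SE 0.09, 95% interval −0.17 to 0.25, adjusted p = 0.814, limma). In both genes the IK-KO range overlapped the wild type range.

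The balance between MYC and the genes that oppose it was compared within each library. MYC exceeded MAX by 2.73 ± 0.303 times in wild type and by 2.56 ± 0.234 times in IK-KO (SD, n = 3 each), with single libraries between 2.30 and 3.05. MYC was 2.59 ± 0.0824 times the sum of the MXD genes, MNT and MGA in wild type and 2.42 ± 0.127 times in IK-KO, and these groups overlapped too. MAX was 1.65 ± 0.169 and 1.65 ± 0.210 times MLX. The 10 members summed to between 343 and 372 FPKM, of which MYC made up 47.6% to 51.3%. MXD3 supplied 59.1% to 68.5% of the summed FPKM of MXD1, MXD3, MXD4 and MXI1. The ratio of MXD3 to the other 3 genes of this kind was 1.85, 1.44 and 1.70 in wild type and 1.86, 2.17 and 2.06 in IK-KO libraries. Those groups did not overlap, by a margin far smaller than the spread within them, and this ratio was given no test.

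**Figure D3:**
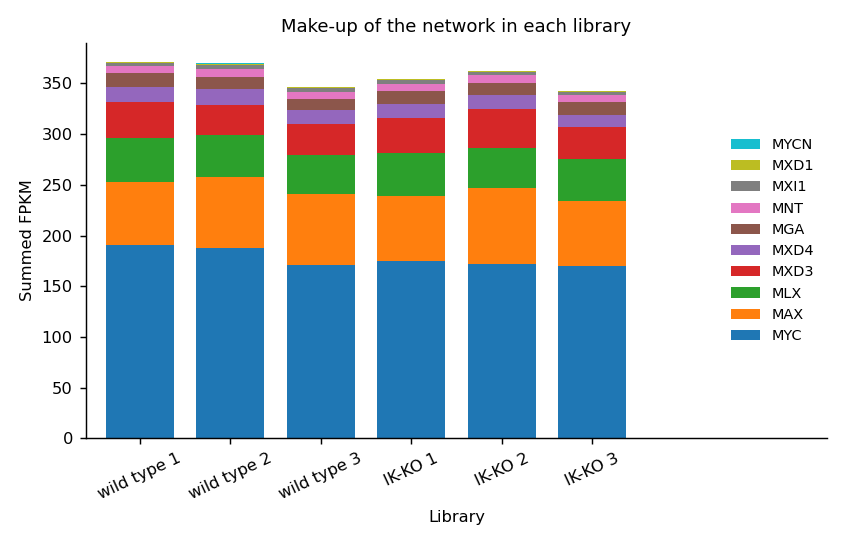
Summed FPKM of the network in each of the 6 libraries, with a stacked bar per library divided by member, on a linear axis from 0. The bars reach 343 to 372 FPKM, MYC fills 47.6% to 51.3% of each, and MAX, MLX and MXD3 fill most of the rest.

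Genes with profiles most like those of MYC and MXI1 were sought among the other 12651 tested genes, by the root mean square difference of log2 values centred on each gene's own mean over the 6 libraries. For MYC the nearest were AC110079.1 (0.0108), MED29 (0.0173) and SETD3 (0.0177), with log2 changes of −0.09, −0.10 and −0.09. For MXI1 the nearest were ACACB (0.0550), DOK3 (0.0605) and SKIL (0.0740), with log2 changes of −0.30, −0.36 and −0.23. None of these 6 genes was called by limma. They were picked on the same 6 libraries, so changes near those of MYC and MXI1 follow from that choice.

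The partners and rivals of the network outside the members gave 1 call among 5 tested genes (20.0%, against 19.9% of all tested genes) of a list of 9. USF1, an E-box factor that binds the same core without MAX, was at 37.0, 42.0 and 36.8 FPKM in wild type, against 65.3, 64.1 and 59.9 FPKM in IK-KO libraries. It rose in IK-KO, with a log2 change of 0.70 (SE 0.07, adjusted p = 0.000822, limma), while tested genes within 5 megabases of it had a median change of 0.25. Its relative USF2 had a log2 change of 0.15 (adjusted p = 0.176) and MLXIP, the partner of MLX, of 0.02 (adjusted p = 0.916). TFEB, a lysosomal E-box factor, was at 1.99, 1.52 and 2.47 FPKM in wild type, against 0.655, 1.4 and 0.453 FPKM in IK-KO libraries. Its groups did not overlap, but it was not called (log2 change −0.73, SE 0.24, adjusted p = 0.0739, limma). It passed the threshold without IK-KO replicate 2 (adjusted p = 0.0364) and with the median change of its neighbours removed (log2 change −0.98, adjusted p = 0.0335). TFE3 had a log2 change of −0.12 (adjusted p = 0.489), and MYCL (0.109 and 0.125 FPKM), TFEC, MITF and MLXIPL were too low to test.

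Cofactors of the network held 10 calls among 53 tested genes of 4 lists. The share called was 15.4% to 22.2% per list, near the 19.9% of all tested genes. Of 15 coactivators, 1 rose and 2 fell, with a median log2 change of −0.02. SMARCB1, a SWI/SNF subunit that binds MYC, rose from 112 ± 3.94 to 137 ± 0.410 FPKM (log2 change 0.29, adjusted p = 0.00496, limma). WDR5, which holds MYC on chromatin, fell by 0.35 on the log2 scale (adjusted p = 0.00664), but its neighbours within 5 megabases had a median of −0.32, and with that removed its change was −0.03 (adjusted p = 0.777). RUVBL1 fell by 0.21 (adjusted p = 0.0325), a call lost without IK-KO replicate 1 (adjusted p = 0.102), IK-KO replicate 3 (0.0937), wild type replicate 1 (0.0995) or wild type replicate 2 (0.0794). TRRAP, the scaffold of MYC-bound acetyltransferases, had a log2 change of −0.02 (adjusted p = 0.848) and was not called.

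Among 13 corepressor genes, SIN3 complex subunits and the MYC-binding repressor gene ZBTB17, 2 rose and none fell, and the median log2 change was 0.13. HDAC2, a histone deacetylase of the SIN3 complex, was at 144, 155 and 139 FPKM in wild type, against 257, 253 and 247 FPKM in IK-KO libraries. Its rise, 0.79 on the log2 scale (SE 0.05, adjusted p = 0.000162, limma), was the largest of these lists, beside a median of 0.21 for its neighbours. RBBP4, a histone chaperone of the same complex, rose by 0.27 (adjusted p = 0.0101). HDAC1 was at 147 ± 2.62 and 159 ± 1.6 FPKM and was not called (log2 change 0.12, adjusted p = 0.0900), and neither was SIN3A (0.15, adjusted p = 0.416) or SIN3B (0.03, adjusted p = 0.852).

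Of the 9 subunits of PRC1.6, the Polycomb complex of MGA and MAX, 2 rose and none fell, with a median log2 change of 0.16. RYBP rose from 6.41 ± 0.627 to 9.57 ± 0.392 FPKM (log2 change 0.51, adjusted p = 0.00982, limma). E2F6 rose from 10.5 ± 1.04 to 14.4 ± 1.25 FPKM (0.43, adjusted p = 0.0236), a call lost without IK-KO replicate 1 (adjusted p = 0.0806), IK-KO replicate 2 (0.0755), wild type replicate 1 (0.0799) or wild type replicate 3 (0.0734). L3MBTL2 (−0.20), TFDP1 (−0.02), PCGF6 (0.03), RNF2 (0.10), CBX3 (0.16), RING1 (0.19) and YAF2 (0.23) were not called.

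Genes that set the stability of MYC protein gave 2 rises and 1 fall among 16 tested. USP28, a deubiquitinase that counters the MYC ubiquitin ligase FBXW7, was at 9.65, 7.13 and 6.93 FPKM in wild type, against 3.80, 3.62 and 5.04 FPKM in IK-KO libraries, so that the groups did not overlap. It fell by 0.79 on the log2 scale (SE 0.16, adjusted p = 0.0145, limma), but without IK-KO replicate 1 or 2 the adjusted p was 0.0536 or 0.0557. FBXW7 had a log2 change of 0.04 (adjusted p = 0.903). USP22 rose by 0.29 (adjusted p = 0.0105). PPP2CA, the catalytic subunit of the phosphatase PP2A, rose by 0.31 (adjusted p = 0.0149), with an adjusted p of 0.0557 without IK-KO replicate 1 and 0.0564 without IK-KO replicate 2. Over the 4 cofactor lists, 6 genes in place of 10 were called without IK-KO replicate 1. Calls over all 12652 tested genes dropped as well in that fit, from 2515 to 1769. MYC protein was not measured in these libraries.

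**Figure D4:**
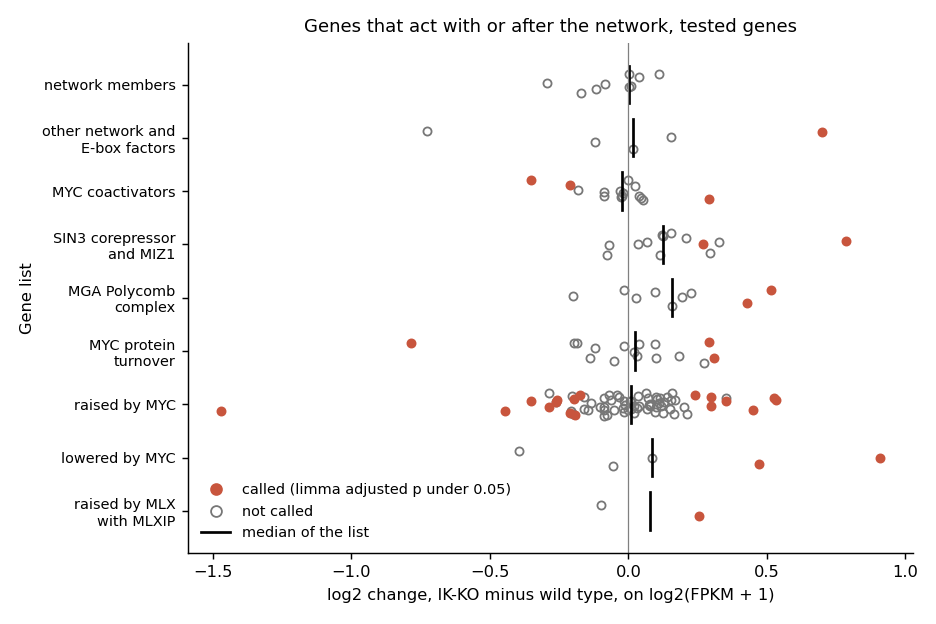
Log2 change (IK-KO minus wild type, on log2(FPKM + 1)) of each tested gene, with a row of points for each list, called genes filled, and the median of each list marked. The list medians lie between −0.02 and 0.16, and HDAC2, USF1 and CDKN1A stand at the right.

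Genes that MYC is known to raise did not move one way. Of 77 genes on this list, 74 were tested, 7 rose and 10 fell, 23.0% in all against 19.9% of all tested genes, and their median log2 change was 0.01, with 39 above 0 and 35 below. The count of 17 and the majority of falls varied with the libraries kept. Without IK-KO replicate 1, 9 were called (5 higher and 4 lower). Without IK-KO replicate 2, wild type replicate 1 or wild type replicate 2, 9 were called (6 higher and 3 lower). Without IK-KO replicate 3, 12 were called (7 higher and 5 lower), and without wild type replicate 3, 13 (6 higher and 7 lower). Calls over all tested genes also dropped with a library left out, from 2515 to between 1692 and 2004. ODC1, the first enzyme of polyamine synthesis, rose from 189.8, 188 and 178 FPKM to 225, 227 and 230.1 FPKM (log2 change 0.30, adjusted p = 0.00409, limma). LDHA, which makes lactate, fell from 414 ± 22.4 to 357 ± 15.5 FPKM (−0.21, adjusted p = 0.0370), but was not called without IK-KO replicate 1 (adjusted p = 0.117), IK-KO replicate 2 (0.111), wild type replicate 1 (0.111) or wild type replicate 2 (0.103). These well-known targets differed in direction, but the call of ODC1 held under all 17 alternatives and that of LDHA was lost under 9.

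The largest rises on that list were in SHMT2, a mitochondrial enzyme of serine metabolism, and in IPO4, a nuclear import receptor. SHMT2 rose from 85.4 ± 5.87 to 124 ± 6.44 FPKM (log2 change 0.53, adjusted p = 0.00223, limma), and IPO4 from 19.3 ± 2.13 to 28.2 ± 0.619 FPKM (0.53, adjusted p = 0.00619). The largest fall was in TERT, the catalytic subunit of telomerase, which was at 1.28, 3.79 and 1.07 FPKM in wild type and was listed at 0, 0.0413 and 0.0194 FPKM in IK-KO libraries. The groups did not overlap. TERT passed the filter of a mean FPKM of at least 1 only through its wild type libraries, of which replicate 2 was highest at 3.79 FPKM. The IK-KO values lay at the floor, so the size of this fall and its call rest on low values. Its log2 change of −1.47 (adjusted p = 0.0210, limma) lay between −3.95 and −1.09 under 16 alternatives. With no filter on low values its adjusted p was 0.0743, and without IK-KO replicate 1, 2 or 3 its adjusted p was 0.0606, 0.0609 or 0.0595. RABEPK fell by 0.45 (adjusted p = 0.00947), with neighbours at a median of −0.36, and with that removed its change was −0.09 (adjusted p = 0.522).

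The nucleolar proteins NCL and NPM1 were among the most abundant genes of the list and were not called. NCL had means of 516 and 528 FPKM (log2 change 0.03, adjusted p = 0.684, limma), and NPM1 had means of 989 and 1107 FPKM (0.16, adjusted p = 0.0710). NPM1 was called higher with the median change of its neighbours removed (0.28, adjusted p = 0.0120) and with median-ratio scaling (0.15, adjusted p = 0.0357). CAD, which starts pyrimidine synthesis, had a log2 change of 0.20 (adjusted p = 0.0912). CDK4 had 0.12 (adjusted p = 0.270, and 0.0384 without IK-KO replicate 3), and CCND2 was too low to test.

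E-boxes were frequent in the promoters of this list, at 33 of 81 windows (40.7%), against 9.70% of the windows of tested genes. The IKAROS core was in 25 of these 81 windows (30.9%), against 21.6%. Sites of a target that rose and of one that fell are shown because they carry the same element, in capitals, on GRCh38.p14.
ODC1, chr2:10448026-10448051, minus strand, offset −29 from the start: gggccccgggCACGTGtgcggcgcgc
ODC1, chr2:10447992-10448017, minus strand, offset 5 from the start: cctgcggagaCACGTGgtcgccgagc
LDHA, chr11:18394466-18394491, plus strand, offset −87 from the start: gcccgactcaCACGTGggttcccgca
LDHA, chr11:18394368-18394393, plus strand, offset −185 from the start: actcccagcgCACGTGgagcagtctg

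Genes that MYC is known to repress gave 2 rises and no fall among 5 tested genes of a list of 8, 40.0% called against 19.9% of all tested genes, of which 10.1% were higher. CDKN1A, the p21 inhibitor of cell cycle kinases, was at 2.46, 2.44 and 1.89 FPKM in wild type, against 6.31, 5.03 and 4.16 FPKM in IK-KO libraries. It rose by 0.91 on the log2 scale (SE 0.16, adjusted p = 0.00869, limma), with neighbours at a median of 0.23. CDKN1B, the p27 inhibitor, rose from 19.5 ± 0.851 to 27.5 ± 1.54 FPKM (log2 change 0.47, adjusted p = 0.00404, limma). GADD45A (−0.05), NDRG1 (0.08) and NDRG2 (−0.40) were not called, although NDRG2 was called lower without IK-KO replicate 2 (adjusted p = 0.0286). CDKN1C, CDKN2B and GAS1 were too low to test. None of 9 promoter windows of this list held the E-box.

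The pair of genes best known to respond to MLX dimers was also read. TXNIP, which restrains glucose uptake, was at 26.7, 27.1 and 26.1 FPKM in wild type, against 32.2, 32.3 and 31.3 FPKM in IK-KO libraries. It rose by 0.25 on the log2 scale (SE 0.05, adjusted p = 0.0171, limma), a call lost without IK-KO replicate 1 (adjusted p = 0.0574), IK-KO replicate 2 (0.0584) or wild type replicate 1 (0.0515). ARRDC4, its relative, had a log2 change of −0.10 (adjusted p = 0.731).

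Some genes around MYC on chromosome 8 differed more than MYC itself. Of 29 other tested genes that start within 5 megabases, 5 were called, 1 higher and 4 lower, a share no higher than the 19.9% of all tested genes, and the median log2 change was −0.07. CCDC26, a long noncoding gene whose region contains blood enhancers of MYC, starts 1.95 megabases beyond the MYC start and was at 26.5, 26.0 and 22.3 FPKM in wild type, against 6.49, 5.78 and 5.24 FPKM in IK-KO libraries. The groups were far apart, and CCDC26 fell by 1.93 on the log2 scale (SE 0.10, 95% interval −2.17 to −1.68, adjusted p = 7.85e-05, limma). AC103833.2, which lies within the span of CCDC26, fell from 6.77 ± 1.44 to 1.39 ± 0.108 FPKM (−1.69), so these are not independent readings. SQLE, an enzyme of cholesterol synthesis on the other side of MYC, fell from 76.4 ± 4.74 to 49.7 ± 1.77 FPKM (−0.61), TBC1D31 fell by 0.37, and NDUFB9 rose by 0.24.

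PVT1, the noncoding neighbour of MYC, was the least steady transcript of the locus. It was at 74.6, 15.9 and 473 FPKM in wild type, against 13.4, 8.36 and 119 FPKM in IK-KO libraries, a range that on the log2 scale was wider within each group than the difference between them. Its log2 change was −1.74 (SE 1.35, 95% interval −4.92 to 1.43, adjusted p = 0.417, limma), and −2.90 to −0.50 under 17 alternatives. MYC did not follow this spread, since its lowest and highest libraries differed by far less.

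**Figure D5:**
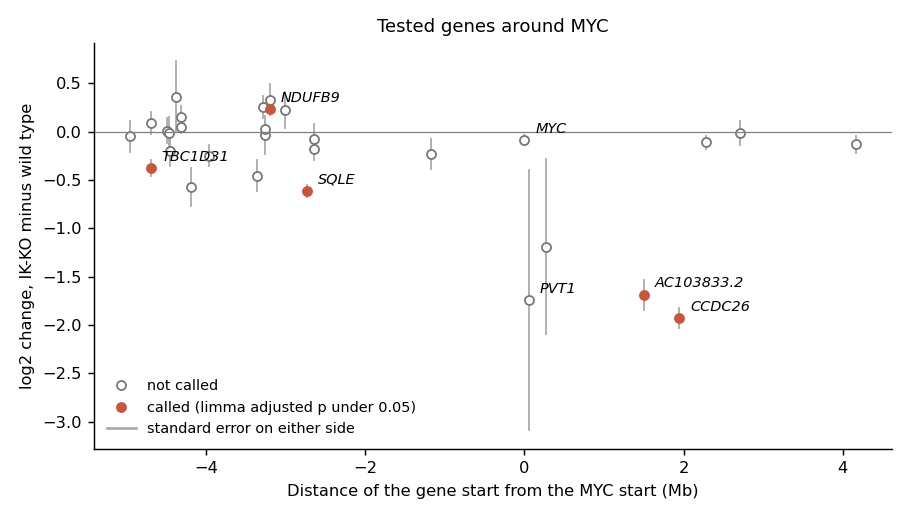
Log2 change (IK-KO minus wild type) of MYC and the 29 other tested genes within 5 megabases, against the distance of each gene start from the MYC start in megabases, with lines of 1 standard error on either side and called genes in colour. MYC lies at −0.08, CCDC26 at −1.93, and PVT1 has the widest error.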

How the data were processed

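RNA-seq of polyA RNA from 3 wild type and 3 IK-KO MOLT-4 libraries was read from gene tables with 1 table per library. The submitters' processing notes name STAR 2.6.1c, Cufflinks 2.2.1, HOMER 4.10 and hg38. The deposited values are FPKM, which the authors scaled by transcript length and by library depth, and each value has confidence bounds and an estimation status. The annotation is not given in the sources used here, but all 49727 single-row identifiers whose version occurs in GENCODE release 44 lay at its GRCh38 position. Of the members, MXD1, MXD4, MNT and MXI1 were among these, MYC, MYCN, MAX and MXD3 had the same position under another version, and MGA and MLX are given at the position in the tables, which differs from that release. Positions count from 1.

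Rows of 1 identifier were summed (110 identifiers), and 29 genes with a failed estimate were left out. No counts are given, so no count model was used. Genes with a single transcript had between 14.9 and 17.8 fragments per FPKM and kilobase, judged from the bounds. The FPKM of a library summed to 699352 to 738051, with 13.0% to 14.4% from mitochondrial transcripts.

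Changes were tested with limma 3.58.1 in R 4.3.3 (lmFit and eBayes with a trend of the variance on the mean, two-sided, with p-values adjusted by Benjamini-Hochberg over all 12652 genes of mean FPKM 1 or more) on log2(FPKM + 1), computed from the deposited FPKM. This scale understates the change of low genes. The fit was tested on simulated data. Alternatives changed the pseudocount, filter, scaling, variance model, failed estimates and replicate block, removed the median change of neighbours, or left out each library.

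The members and the lists were chosen with earlier results of these data known, so no list was tested as a set. Named genes are all members, the 2 largest called rises and falls of each list, and all genes of lists of up to 11. An exception is the list of 11 genes beside MYC, of which only PVT1, CCDC26 and CASC11 are named. Of that list 9 were found and 2 tested, and with no filter on low values 1 was called higher and 1 lower. Also named are NCL, NPM1, ODC1, CAD, LDHA, CDK4, CCND2, TERT and IKZF1. So are genes near a member where a result turns on them, and the 3 nearest profiles of MYC and of MXI1. HDAC1, SIN3A, SIN3B, TRRAP and FBXW7 were added after their values were seen.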

Additional observations from a re-analysis of the deposited data

How the results depend on the processing

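No tested member was called under any alternative in which it was fitted (17, but 16 for MXD1 and MXI1, which a mean FPKM of at least 5 leaves out), MYCN was fitted with no filter only, and the log2 change of MYC lay between −0.13 and 0.01 (adjusted p from 0.0670 to 0.960, limma). The ranges were −0.09 to 0.05 for MAX, −0.04 to 0.03 for MLX, 0.04 to 0.19 for MXD3, −0.17 to −0.04 for MXD4, −0.03 to 0.09 for MGA, −0.07 to 0.07 for MNT, −0.48 to −0.19 for MXI1 and −0.29 to −0.10 for MXD1, so the direction of MYC, MAX, MLX, MGA and MNT was not fixed. Across all genes, 1692 to 2803 were called.

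The count of called genes that MYC raises was 17. It was 11 with no filter at either pseudocount, 9 with no variance trend and 9 with the replicate block, and 9 to 13 with a library left out, against 21 with median-ratio scaling, 20 with quantile normalisation and 18 on TPM. Called network partners numbered 1, and 2 with the median of neighbours removed, and 1 to 2 with a library left out. Called genes that MYC represses numbered 2, and 1 at a mean FPKM of at least 5. Called cofactors numbered 10, and 6 to 10 with a library left out.

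Samples with the same replicate number did not deviate together (correlations 0.0669, 0.0248 and 0.00546), so they were taken to share only a number. With the replicate block, MYC changed by −0.08 (adjusted p = 0.318), 0 members and 1805 genes were called, and PVT1 passed the threshold (adjusted p = 0.0254).

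The listed confidence bounds were widest in MXD1, MXI1 and MYCN, but limma does not use them, and how far depth limits these members was not tested. With opposite bounds in place of FPKM, the group mean of the ratio of MYC to MAX was 2.28 and 3.33 in wild type and 2.23 and 2.98 in IK-KO, and single libraries reached 1.97 and 3.66.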
